A study of Mus musculus with 12 samples.

Results

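The genes described here are the metallothioneins Mt1 and Mt2, the zinc exporter Slc30a1, the zinc importer Slc39a10 and the zinc-sensing regulator Mtf1, 5 of the 56748 genes in the count files. They were matched by mouse symbol, and all 5 were found. The set was chosen by the levels of Mt1, picked because they differed strongly between groups, so every value of Mt1 below is a description without a test, and Slc30a1, Slc39a10 and Mtf1 were tested in a fit over all genes, as was Mt2 between lymphatic cells and culture. RNA was measured in 12 bulk libraries of Eµ-Myc lymphoma, a mouse B cell lymphoma driven by a Myc transgene under the immunoglobulin heavy chain enhancer, here a cell line grown in culture and injected into C57BL/6J mice. The culture group holds 4 libraries of the cells without a host. The lymphatic group holds 4 libraries of lymphoma cells sorted from lymph nodes on day 11 after spread through lymphatic vessels. The hematogenous group holds 4 libraries of cells sorted from lymph nodes on day 18 after spread through the blood. Route and day change together and cannot be told apart, and the labels give no sort gate and name lymph node as a tissue even for cultured cells. Whether replicates came from separate animals or separate cultures is not stated, so each p-value reflects the spread between libraries, which may be technical.

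Metallothioneins are small cysteine-rich proteins that bind zinc, copper and other metals in the cytosol. Free zinc is sensed by MTF1, a zinc finger factor that moves to the nucleus when zinc rises, binds short metal response elements near the start of metallothionein genes and of Slc30a1, and raises their transcription. Slc30a1 (ZnT1) carries zinc out across the plasma membrane, and Slc39a10 (ZIP10) carries zinc in and is known for a role in B cell survival.

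The sequences in front of the 2 metallothionein genes and Slc30a1 are shown because they carry the letters of the metal response element, and they come from RefSeq windows of GRCm38.p6, an older build than the GRCm39 of the count files. Each runs 5′ to 3′ from 250 bases before the RefSeq start to 30 bases after it, on the plus strand, and capitals mark every match to the metal response cores TGCACNC and TGCGCNC, searched on both strands. The windows are Mt1 at chr8:94178839-94179118, Mt2 at chr8:94172368-94172647 and Slc30a1 at chr1:191906531-191906810.
Mt1: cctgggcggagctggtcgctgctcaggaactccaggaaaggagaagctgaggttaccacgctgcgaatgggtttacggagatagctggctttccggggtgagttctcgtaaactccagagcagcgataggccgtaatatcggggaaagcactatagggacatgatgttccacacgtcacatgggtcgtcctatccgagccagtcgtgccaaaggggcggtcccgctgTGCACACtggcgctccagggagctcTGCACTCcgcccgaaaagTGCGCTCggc
Mt2: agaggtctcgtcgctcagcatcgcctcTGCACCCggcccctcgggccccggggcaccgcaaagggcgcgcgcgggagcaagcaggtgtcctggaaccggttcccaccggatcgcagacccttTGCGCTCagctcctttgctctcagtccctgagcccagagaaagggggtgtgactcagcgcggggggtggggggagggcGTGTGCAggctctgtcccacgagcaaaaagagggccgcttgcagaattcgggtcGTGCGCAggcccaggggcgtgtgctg
Slc30a1: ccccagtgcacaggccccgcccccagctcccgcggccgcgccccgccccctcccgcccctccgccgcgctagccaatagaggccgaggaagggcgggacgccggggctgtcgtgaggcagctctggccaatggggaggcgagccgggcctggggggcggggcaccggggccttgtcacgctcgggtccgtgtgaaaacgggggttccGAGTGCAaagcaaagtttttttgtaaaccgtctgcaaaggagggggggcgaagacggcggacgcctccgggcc
In the whole 300-base windows, which end 50 bases after the start, Mt2 held 4 core matches, Mt1 held 3, and Slc30a1 held 2, of which 1 lies past the part printed. The 3 matches of Mt1 begin at positions -23, 3 and 21 from the start. Those of Mt2 begin at -223, -128, -50 and 5. At least 3 matches occurred in 1.97% of 32851 RefSeq windows and at least 1 in 25.7%, with 12.6% holding TGCACNC and 15.4% holding TGCGCNC. The windows of Mtf1 and Slc39a10 (2 windows) held 0 matches, which says only that these letters are not in them. The antioxidant response core TGACNNNGC, held by 12.4% of windows, was found in those of Mt2 and Slc30a1, and the E box CACGTG, held by 7.15%, in none of the members' windows. Other annotated transcripts of Mt1 start 122 and 152 bases after the RefSeq start, and of Mt2 up to 242, so the windows do not cover the surroundings of every start. Positions are counted from the RefSeq start only, and all 3 matches of Mt1 lie before these later Mt1 starts. Which start the cells use was not tested. A match is a run of letters and not a measured binding site.

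Assigned counts ran from 5286775 to 25302016 per library, and 13535 genes were tested. All 9 B cell markers had counts in each group, and their summed level in CPM, counts scaled to a common library size, was 2658 to 2727 in culture. It was 2596 to 3478 for the lymphatic and 4957 to 5554 for the hematogenous group. Summed T cell markers were at 0 to 0.622 CPM in culture, 20.02 to 89.0 in the lymphatic group and 5.78 to 16.2 in the hematogenous group, and macrophage markers at 12.8 to 17.5, 31.8 to 72.9 and 27.9 to 33.8. All 10 listed markers of each of these types had counts in both lymph node groups, whereas 6 T cell markers and 5 macrophage markers were at 0 in culture. Summed NK cell markers were at 18.7 to 22.7 CPM in culture, 0.744 to 7.65 in the lymphatic group and 0 to 1.47 in the hematogenous group, the order of Mt1, but in culture 4 of the 6 were at 0 and Klrb1c alone averaged 20.2 CPM. Summed endothelial markers were at 77.1 to 81.0, 80.9 to 115 and 140 to 168 CPM, nearly all of it Pecam1, while Prox1 and Emcn were at 0 in both lymph node groups. The part of any of these markers in the results on the members was not tested. Lymphatic 4 stood apart, with 15.95% of its counts in ribosomal protein genes against 7.60% to 9.86% in the other 11 libraries, and 12.9% in genes under 1500 exonic bases against 7.11% to 8.27%.

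Mt1 (ENSMUSG00000031765.9) was abundant in cultured lymphoma cells, lower in most lymphatic libraries and scarce in hematogenous ones. In culture 1 to 4 it stood at 173, 166, 100.5 and 125 CPM. In lymphatic 1 to 4 it stood at 34.6, 22.5, 50.5 and 110 CPM. In hematogenous 1 to 4 it stood at 2.65, 7.49, 4.11 and 2.47 CPM. All hematogenous libraries lay below all others, while lymphatic 4 lay above culture 3, so culture and lymphatic values overlap. Mean CPM was 141 ± 34.5 for culture, 54.4 ± 38.8 for the lymphatic group and 4.18 ± 2.33 for the hematogenous group (SD, n = 4 each). Mt1 thus spanned counts of 13 to 2230 per library.

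On the log2 scale Mt1 in hematogenous cells was at -5.02 ± 0.507 (SE) relative to culture, a 32.6-fold lower level. The log2 difference of lymphatic cells from culture was -1.38 ± 0.413, and that of lymphatic from hematogenous cells was 3.65 ± 0.486, a 12.5-fold higher level. Without lymphatic 4 the lymphatic mean was 35.9 ± 14.1 CPM (SD, n = 3), these 3 libraries all lay below culture, and the log2 difference from culture was -1.99 ± 0.279. The difference of lymphatic from hematogenous cells was then 3.01 ± 0.329. Mt1 and Mt2 are both under 1500 exonic bases long, the class of genes with the raised share in lymphatic 4, and the part of that share in the values of lymphatic 4 was not tested. In bulk samples, fewer cells that express a gene and less RNA per cell cannot be told apart.

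**Figure D1:**
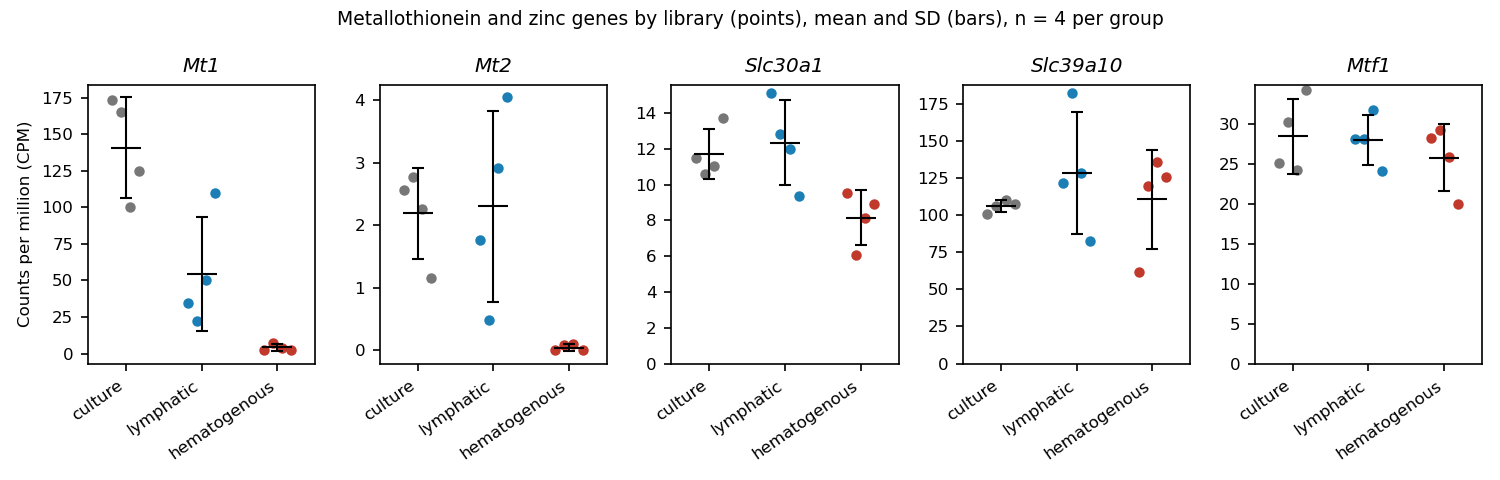
CPM of the 5 genes (vertical axis, linear, a scale per panel) in each of the 4 culture, 4 lymphatic and 4 hematogenous libraries (points, replicates 1 to 4 from left to right), with group mean and SD as bars. Mt1 and Mt2 lie near 0 in the hematogenous libraries, the lymphatic points of Mt1 and Mt2 are widely spread with lymphatic 4 highest, and the points of Slc39a10 and Mtf1 overlap between groups.

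Mt2 (ENSMUSG00000031762.8), the paralogue that lies next to Mt1, was counted in every culture and lymphatic library and almost absent from hematogenous ones. Culture 1 to 4 had 33, 16, 21 and 10 counts, and lymphatic 1 to 4 had 26, 12, 37 and 72. In hematogenous 1 to 4 the counts were 0, 1, 1 and 0. For the counts of 0 in hematogenous 1 and 4, the upper limits, taken as 3 counts, were 0.241 and 0.570 CPM. The counts of 1 in hematogenous 2 and 3 correspond to 0.0842 and 0.0978 CPM. In CPM, Mt2 averaged 2.19 ± 0.724 for culture, 2.30 ± 1.53 for the lymphatic group and 0.0455 ± 0.0528 for the hematogenous group (SD, n = 4 each). All hematogenous libraries lay below all others, and the culture and lymphatic libraries overlapped, with lymphatic 2 lowest and lymphatic 4 highest of the 8. Mt2 passed the low-count filter through its culture and lymphatic libraries only and so had to be lower in the hematogenous group, and its differences from that group are given as values without a test.

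The log2 difference of Mt2 in hematogenous cells from culture was -5.18 ± 0.903 (SE). The pooled counts of 80 in culture and 2 in hematogenous libraries give a depth-scaled ratio of 43.5, with a 95% counting interval of 11.7 to 366. For lymphatic against hematogenous cells the log2 difference was 5.24 ± 0.881 (SE), with a pooled ratio of 41.6 and an interval of 11.3 to 347. Both intervals cover counting error in the pooled counts only and leave out the spread between libraries. They are not a test, since Mt2 had to be lower in the hematogenous group. Between lymphatic cells and culture the log2 difference of Mt2 was 0.06 ± 0.513 (SE, adjusted p = 0.948, edgeR), and -0.43 ± 0.479 without lymphatic 4 (adjusted p = 0.519).

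The counts of Mt2 may not hold all of its reads. The predicted gene Gm45774, on the other strand, covers 432 of the 588 exonic bases of Mt2 (73.5%), and it had 17 counts over all 12 libraries. Among 146 annotated genes lying wholly inside exons of a well-counted gene on the other strand, 144 had 0 counts in all libraries, as did 236 of 236 such genes inside exons of a gene on the same strand. Genes that are not expressed would also be at 0, so this does not show whether strand was used in counting, an option not given in the sources used here. If it was not used, reads over the shared bases would be missing from Mt2. Mt1 overlaps no other annotated gene, and 0% of its 50-base stretches occur in another gene's transcripts, so which of Mt1 and Mt2 is more abundant is not judged here. The share of Mt2 given below may lack reads of Mt2 and is set only between groups. The overlap is the same in all libraries. As a share of the counts of both genes, Mt2 made up 0.916% to 2.20% in culture and 2.09% to 5.46% in lymphatic libraries. In hematogenous libraries the share ran from 0% to 2.33%, and the Wilson 95% intervals there reach up to 22.8%, too wide at this depth to place it against either group.

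The other metallothioneins were at the limit of detection. Mt3, the growth inhibitory factor of brain, had 2 counts in culture 1 and 0 in the other 11 libraries. Mt4, known from stratified epithelia, had 0 counts in all 12.

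Slc30a1 (ENSMUSG00000037434.8), the exporter at the plasma membrane, was lowest in hematogenous cells by a small margin. Culture 1 to 4 had 11.5, 10.6, 11.1 and 13.7 CPM, and lymphatic 1 to 4 had 15.2, 12.8, 12.0 and 9.39 CPM. Hematogenous 1 to 4 had 9.55, 6.06, 8.12 and 8.93 CPM. All hematogenous libraries lay below all culture libraries, but lymphatic 4 fell inside the hematogenous range. Slc30a1 was higher in lymphatic than in hematogenous cells, by 0.60 ± 0.187 (SE) on the log2 scale (adjusted p = 0.0346, edgeR). That call was lost in 10 of 20 alternative settings, with adjusted p from 4.72e-03 to 0.105, and without lymphatic 4 the log2 difference was 0.71 ± 0.168. Against culture the hematogenous difference of -0.53 ± 0.191 did not pass the threshold (adjusted p = 0.0535, edgeR), though it passed in 3 of the 20 settings, among them that without lymphatic 4 (adjusted p = 0.0154), over which adjusted p ran from 0.0111 to 0.154. Lymphatic cells and culture differed by 0.07 ± 0.184 (SE, adjusted p = 0.809, edgeR). Of the exonic bases of Slc30a1, 8.92% are shared with a gene on the other strand.

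Slc39a10 (ENSMUSG00000025986.7), the importer, gave no call in any comparison. It stood at 100.5, 106, 110 and 107 CPM in culture 1 to 4, at 121, 182, 128 and 82.5 CPM in lymphatic 1 to 4, and at 61.7, 120, 136 and 126 CPM in hematogenous 1 to 4. The culture libraries lay close together, within the ranges of both lymph node groups, whose lowest libraries were lymphatic 4 and hematogenous 1. The log2 differences were 0.28 ± 0.239 for lymphatic against culture, 0.06 ± 0.240 for hematogenous against culture and 0.22 ± 0.238 for lymphatic against hematogenous cells (SE), with adjusted p of 0.423, 0.886 and 0.540 (edgeR).

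Mtf1 (ENSMUSG00000028890.14), the regulator of the metallothionein genes, also gave no call. Culture 1 to 4 had 25.0, 30.2, 24.3 and 34.2 CPM, lymphatic 1 to 4 had 28.1, 28.1, 31.8 and 24.1 CPM, and hematogenous 1 to 4 had 28.2, 29.2, 25.8 and 19.9 CPM. All 3 groups overlap, with hematogenous 4 the lowest library. The log2 differences of Mtf1 were -0.02 ± 0.154, -0.13 ± 0.156 and 0.11 ± 0.154 (SE) in the same order of comparisons, with adjusted p of 0.939, 0.593 and 0.638 (edgeR). The RNA level of MTF1 does not measure its activity, which is set by zinc binding and its place in the cell.

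Of Slc30a1, Slc39a10 and Mtf1, the test called 0 in lymphatic cells against culture, where 26.4% of all genes were called, 0 in hematogenous cells against culture (27.8% of all genes) and 1, Slc30a1, between lymphatic and hematogenous cells (22.3% of all genes). In the comparisons with 0 calls, edgeR gave 0 and 1 at an unadjusted p under 0.05, and DESeq2 and limma-voom gave 0 in both. These counts over 3 genes show nothing particular to the set. In hematogenous libraries Slc30a1 lay below culture without overlap, as did 21.8% of all genes, and 21.8% lay above, 43.6% in either direction. Slc39a10 and Mtf1 overlapped there. Between lymphatic and hematogenous libraries Slc30a1, Slc39a10 and Mtf1 overlapped, while 11.5% of all genes lay above and 13.1% below, 24.6% in either direction. Mt1 and Mt2 lay lower in all hematogenous libraries than in all others. Mt1 was used to choose the set and Mt2 had to be lower in that group, so neither is set against these shares. Between lymphatic and culture libraries all 5 members overlapped, while 14.6% of all genes lay above and 15.5% below without overlap, 30.1% in either direction. Of the differences in hematogenous cells against culture, 40 of the 13535 tested genes had a log2 value at or below that of Mt1, itself among them. Mt1 was picked for a strong difference between groups, so this low place followed from the choice and is a description only. Both comparisons with culture use the same 4 culture libraries.

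Per kilobase of exon, Mt1 in culture reached 113 ± 27.7 CPM per kb, against 17.4 ± 0.658 for Slc39a10, 3.19 ± 0.524 for Mtf1 and 2.24 ± 0.263 for Slc30a1 (SD, n = 4). Length here is the union of all annotated exons of a gene, for Mt1 1246 bases over 3 transcript models. A shorter transcript would give Mt1 a higher level per kb, so its place among the members holds for this length only. In hematogenous cells Mt1 stood at 3.35 ± 1.87 CPM per kb, in the range of Mtf1 at 2.90 ± 0.466 and below Slc39a10 at 18.2 ± 5.48. In lymphatic cells the order of culture was kept, with Mt1 at 43.6 ± 31.1, Slc39a10 at 21.1 ± 6.72, Mtf1 at 3.15 ± 0.354 and Slc30a1 at 2.35 ± 0.454, and the spreads of Mt1 and Slc39a10 overlap.

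The wider families of zinc transporters were examined beside Slc30a1 and Slc39a10. Of 24 listed genes, 17 were tested and 3 had 0 counts in all libraries. In lymphatic cells against culture 0 were called higher (13.4% of all genes) and 3 lower (13.0% of all genes), with a median log2 difference of -0.08 over the 17, against 0.04 over all genes. In hematogenous cells against culture 0 were called higher and 4 lower (13.9% of all genes in each direction), with a median of -0.24, against -0.00 over all genes. For the direction with 0 calls, edgeR at an unadjusted p under 0.05 gave 1 and 0 higher in the 2 comparisons, and DESeq2 and limma-voom gave 0 in both. Between lymphatic and hematogenous cells 3 were called higher (11.4% of all genes) and 0 lower (10.9% of all genes), with a median of 0.16 against 0.03, and 0 were lower also at an unadjusted p under 0.05, by DESeq2 and by limma-voom.

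Slc39a6 (ZIP6), a plasma membrane importer, was the most abundant zinc transporter of cultured cells per kilobase, at 44.3 ± 1.17 CPM per kb (SD, n = 4). It stood at 181, 185, 183 and 174 CPM in culture 1 to 4, at 68.5, 69.4, 71.1 and 60.4 CPM in lymphatic 1 to 4, and at 62.3, 76.9, 60.6 and 66.5 CPM in hematogenous 1 to 4. Every lymph node library lay far below every culture library, and both lymph node groups overlapped. Slc39a6 fell by 1.42 on the log2 scale in lymphatic cells (SE 0.103, adjusted p = 3.90e-07, edgeR) and by 1.44 in hematogenous cells (SE 0.104, adjusted p = 2.13e-07), against the same culture libraries.

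Slc30a4 (ZnT4), which loads zinc into vesicles, was likewise highest in culture. It stood at 57.6, 64.1, 62.2 and 64.6 CPM in culture 1 to 4, at 25.4, 27.3, 18.3 and 15.8 CPM in lymphatic 1 to 4, and at 19.99, 21.6, 22.01 and 24.9 CPM in hematogenous 1 to 4. All lymph node libraries again lay below culture, and the lymph node groups overlapped. Slc30a4 fell by 1.51 on the log2 scale in lymphatic cells (SE 0.163, adjusted p = 1.50e-05, edgeR) and by 1.49 in hematogenous cells (SE 0.165, adjusted p = 1.14e-05).

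Slc30a9 was lower in hematogenous cells than in both other groups. It averaged 94.6 CPM in culture and 91.1 in lymphatic cells, against 54.6 in hematogenous libraries, whose highest value of 58.3 CPM lay below the lowest of 83.2 CPM elsewhere. Slc30a9 fell by 0.79 on the log2 scale against culture (SE 0.106, adjusted p = 6.36e-05, edgeR) and was 0.74 ± 0.105 higher in lymphatic than in hematogenous cells (adjusted p = 3.36e-04). Smaller differences were called for Slc39a14 (ZIP14), an importer of zinc and iron, in hematogenous cells against culture (-0.60 ± 0.189, adjusted p = 0.0291), for Slc30a6 between lymphatic and hematogenous cells (0.42 ± 0.130, adjusted p = 0.0341), and for Slc30a5 in lymphatic cells against culture (-0.28 ± 0.0911, adjusted p = 0.0359). Each of these 3 calls was lost in some of the 20 alternative settings, with adjusted p up to 0.0922, 0.167 and 0.285.

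Summed over the 14 importers, the level was 109 ± 1.24 CPM per kb for culture, 81.4 ± 5.96 for the lymphatic and 75.7 ± 5.52 for the hematogenous group (SD, n = 4). The 10 exporters summed to 64.8 ± 1.98, 53.3 ± 4.26 and 49.2 ± 2.13 CPM per kb. Both sums were lower in all lymph node libraries than in all culture libraries, and within the importer sum Slc39a6 went from 44.3 CPM per kb in culture to 16.5 in lymphatic and 16.3 in hematogenous cells. Slc39a10 ranked 4 among the transporters per kilobase in culture and 2 in both lymph node groups.

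**Figure D2:**
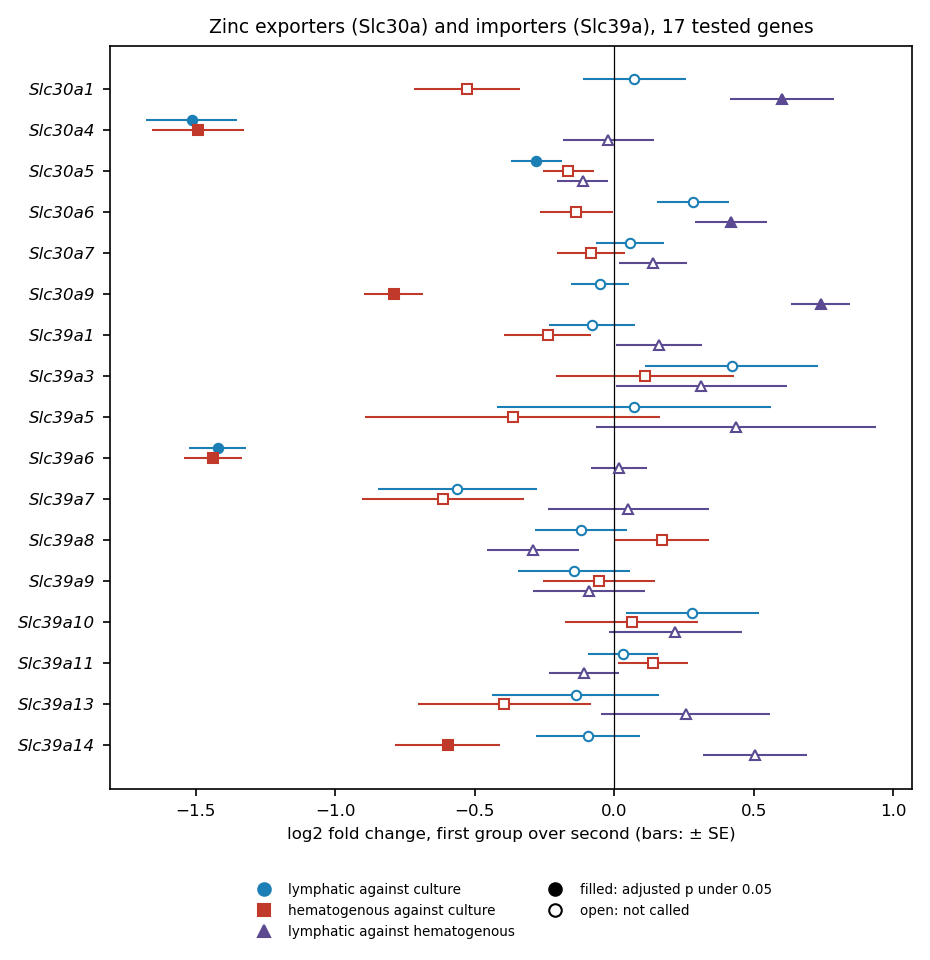
Log2 fold change with SE (horizontal axis) of the 17 tested zinc transporters (vertical axis) in the 3 comparisons, filled where adjusted p was under 0.05. Slc30a4 and Slc39a6 lie near -1.5 against culture in both lymph node groups, and Slc30a9 near -0.8 in hematogenous cells only, where its difference from lymphatic cells was also called.

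Further genes reported as MTF1 targets did not move in 1 direction. The members were left out, as was Slc40a1, which had 1 count over the culture libraries and so could only be called higher against culture. Between lymphatic and hematogenous cells Slc40a1 was called higher, by 1.47 ± 0.486 (SE) on the log2 scale (adjusted p = 0.0448, edgeR). That call was lost in 12 of 20 alternative settings. Of the 5 other genes, 1 was higher (Gclc) and 2 lower (Ndrg1 and Csrp1) in lymphatic cells against culture, beside 13.4% and 13.0% of all genes, and the same calls were made in hematogenous cells against culture, beside 13.9% of all genes in each direction. Between lymphatic and hematogenous cells 0 of the 5 were called (22.3% of all genes), and 0 also at an unadjusted p under 0.05, by DESeq2 and by limma-voom. Gclc, the catalytic subunit of the enzyme that makes the glutathione precursor and also a gene of the NRF2 list used below, averaged 128 CPM for culture, 191 for the lymphatic and 184 for the hematogenous group. It rose by 0.58 ± 0.150 and 0.52 ± 0.150 (SE) on the log2 scale (adjusted p = 0.0114 and 0.0175, edgeR), and the second call was lost without culture 1 or hematogenous 4 (adjusted p = 0.0510 and 0.0661). Csrp1, a LIM domain protein, averaged 89.3 CPM for culture, 56.9 for the lymphatic and 49.1 for the hematogenous group, and fell against culture in both (log2 -0.65 and -0.86, SE 0.134 and 0.135, adjusted p = 2.68e-03 and 2.69e-04). Slc40a1, the iron exporter ferroportin, which macrophages express, had counts of 0, 1, 0 and 0 in the culture libraries. The lymphatic libraries had 33, 87, 20 and 67 counts, and the hematogenous ones 3, 20, 9 and 7. The summed macrophage markers were above culture in the same libraries, in the ranges given above, and their part in the counts of Slc40a1 was not tested.

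Metallothionein genes are also known to respond to glucocorticoids and to oxidative stress, so lists of both were set beside them. Of 11 tested glucocorticoid response genes, 3 were higher (Tsc22d3, Sgk1, Nfkbia) and 5 lower (Per1, Klf9, Ddit4, Errfi1, Nr3c1) in lymphatic cells against culture (13.4% and 13.0% of all genes). In hematogenous cells against culture 4 were higher (Fkbp5, Tsc22d3, Sgk1, Nfkbia) and 2 lower (Ddit4, Errfi1), beside 13.9% of all genes in each direction. In lymphatic against hematogenous cells 3 were higher (Dusp1, Zfp36, Errfi1) and 2 lower (Fkbp5, Tsc22d3), beside 11.4% and 10.9% of all genes. The calls of Dusp1, Zfp36 and Errfi1 there were lost in 9, 4 and 5 of 20 alternative settings, those of Fkbp5 and Tsc22d3 in 0. The call of Klf9 in lymphatic cells against culture was lost in 5. Fkbp5, a chaperone partner of the glucocorticoid receptor, averaged 49.999 CPM for culture, 44.5 for the lymphatic and 169 for the hematogenous group. Fkbp5 was highest where Mt1 was lowest, and rose by 1.75 ± 0.188 (SE) on the log2 scale in hematogenous cells against culture (adjusted p = 8.55e-06, edgeR). Tsc22d3 (GILZ), a glucocorticoid-induced leucine zipper protein, averaged 16.6, 41.2 and 127 CPM in the same order, and rose by 2.93 ± 0.352 in hematogenous cells (adjusted p = 2.43e-05). The 2 genes called lower there were lower in both lymph node groups. Ddit4 averaged 94.9, 28.7 and 33.7 CPM and fell by 1.49 ± 0.276 in hematogenous cells (adjusted p = 9.67e-04, edgeR). Errfi1 averaged 7.81, 2.24 and 0.793 CPM, the order of Mt1, and fell by 3.21 ± 0.433 (adjusted p = 7.02e-05, edgeR).

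Of 13 tested genes of the NRF2 oxidative stress response, 1 was higher (Gclc) and 3 lower (Nfe2l2, Txnrd1, Gsr) in lymphatic cells against culture, beside 13.4% and 13.0% of all genes. In hematogenous cells 2 were higher (Gclc, Gclm) and 4 lower (Nfe2l2, Txnrd1, Pgd, Gsr), beside 13.9% of all genes in each direction. The call of Pgd was lost in 12 of 20 alternative settings (adjusted p up to 0.137). Between lymphatic and hematogenous cells 4 were higher (Nfe2l2, Hmox1, Txnrd1, Gsr) and 0 lower, beside 11.4% and 10.9% of all genes. In that comparison 1 was lower at an unadjusted p under 0.05, and 0 by DESeq2 and limma-voom. The calls of Nfe2l2 and Hmox1 there were lost in 11 and 10 of 20 settings (adjusted p up to 0.201 and 0.116). Gsr, glutathione reductase, averaged 18.2 CPM for culture, 2.52 for the lymphatic and 1.07 for the hematogenous group, and fell against culture in both (log2 -2.84 and -4.03, SE 0.213 and 0.244, adjusted p = 5.33e-07 and 4.92e-08, edgeR). Txnrd1, thioredoxin reductase, averaged 111, 73.3 and 42.7 CPM, and fell likewise (log2 -0.59 and -1.37, SE 0.132 and 0.135, adjusted p = 4.42e-03 and 3.96e-06). Of 11 tested copper handling genes, Slc31a1 was called in lymphatic cells against culture, Slc31a1 and Atp7b in hematogenous cells against culture, and Ccs between the lymph node groups, beside 26.4%, 27.8% and 22.3% of all genes. The call of Atp7b was lost in 7 of 20 settings. The copper importer Slc31a1 averaged 90.95, 66.9 and 53.1 CPM and fell in both comparisons with culture (log2 -0.44 and -0.78, SE 0.123 and 0.125, adjusted p = 0.0168 and 3.11e-04).

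Genes around the metallothionein cluster were examined to see whether the low Mt1 and Mt2 levels extended along the chromosome, a comparison chosen after the values were seen. In gene order the cluster runs Mt4, Mt3, Mt2, Mt1, with Bbs2 before it and Nup93 after it. Nup93, a nuclear pore protein and the neighbour of Mt1, averaged 171 ± 8.02 CPM for culture, 176 ± 34.8 for the lymphatic and 177 ± 11.2 for the hematogenous group (SD, n = 4 each). Its log2 difference in hematogenous cells against culture was 0.05 ± 0.134 (SE, adjusted p = 0.8292, edgeR). Bbs2, a ciliary protein, averaged 5.28 ± 0.679, 10.1 ± 1.11 and 12.1 ± 2.13 CPM and rose by 1.17 ± 0.175 in hematogenous cells (adjusted p = 1.76e-04). Of 9 tested neighbours, 3 were called higher (Bbs2, Herpud1, Nlrc5) and 0 lower in hematogenous cells against culture (13.9% of all genes in each direction), with 2 lower at an unadjusted p under 0.05, and 1 each by DESeq2 and limma-voom.

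**Figure D3:**
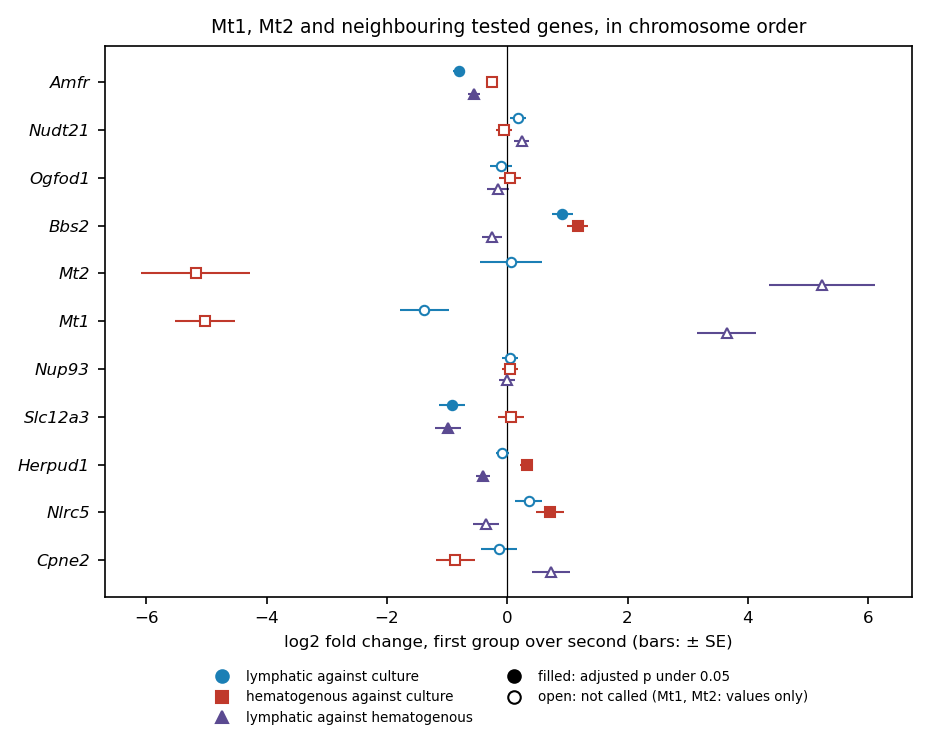
Log2 fold change with SE (horizontal axis) of Mt1, Mt2 and 9 tested neighbouring genes (vertical axis, in chromosome order) in the 3 comparisons, filled where adjusted p was under 0.05, with Mt1 and Mt2 shown as values without a test. Mt1 and Mt2 lie near -5 in hematogenous cells against culture, while Nup93 and Bbs2 on either side lie at 0.05 and 1.17.

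The genes whose levels followed Mt1 most closely were found by Pearson correlation of log2 CPM over the 12 libraries, among 8652 genes averaging 10 CPM or more. These correlations are a description, since the 12 points share groups, libraries and scaling. They were 0.993 for Aldoa, 0.992 for Elovl1, 0.991 for Slc16a3, 0.990 for Pkm and 0.988 for Mgarp. Aldoa, a glycolytic aldolase, averaged 732 CPM for culture, 452 for the lymphatic and 146 for the hematogenous group, and lymphatic 4 was again the highest lymphatic library at 686 CPM. Slc16a3 (MCT4), a lactate exporter, averaged 93.9, 33.3 and 1.29 CPM, the widest range of the 5 as a ratio of groups. Pkm, pyruvate kinase, averaged 2491, 1983 and 1045 CPM, Elovl1, a fatty acid elongase, 117, 99.5 and 68.0 CPM, and Mgarp, a mitochondrial protein, 48.5, 27.2 and 5.24 CPM.

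Mt2 correlated with Mt1 at 0.940, rank 66 of 13534 genes without a minimum level. Slc30a1 stood at 0.541, Mtf1 at 0.318 and Slc39a10 at -0.03. The genes most like Slc30a1 were other ones, Chfr at 0.921, Rgl1 at 0.914, Cop1 at 0.910, Zfp91 at 0.903 and Arhgap19 at 0.886.

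**Figure D4:**
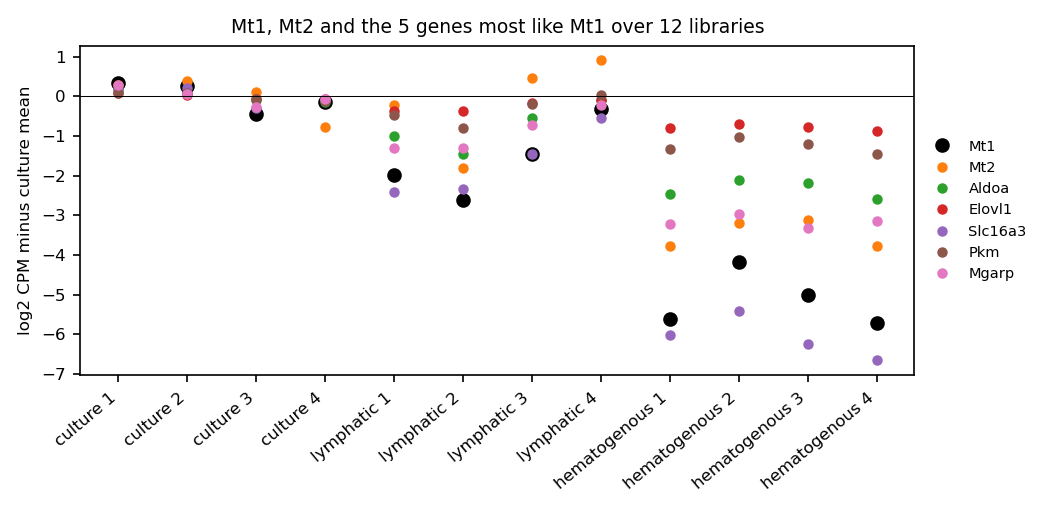
Log2 CPM (prior count 2) minus the culture mean (vertical axis) of Mt1 (black), Mt2 and the 5 genes most like Mt1 in each of the 12 libraries (horizontal axis). All 7 genes are lowest in the hematogenous libraries, with Slc16a3 and Mt1 lying furthest below the culture mean, and for Mt1 and the 5 genes most like it the points of lymphatic 4 lie nearer to culture than those of lymphatic 1 and 2.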

How the data were processed

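Poly(A) RNA of 12 libraries was sequenced as stranded single-end reads, per the labels' protocols. Reads were handled with FastQC 0.11.9, Trimmomatic 0.39, HISAT2 2.1.0 and HTSeq 2.0.2 on GRCm39, per the submitters' processing notes. Each deposited file gives unnormalized raw counts for 1 library. Summary lines, for reads assigned to no gene (30.3% to 36.5%), were left out. Symbols came from an older mouse annotation and cover 91.8% of IDs, and promoter windows came from RefSeq.

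CPM were computed with TMM factors. Genes passing filterByExpr (13535) entered quasi-likelihood F tests on group over all 12 libraries (edgeR 4.0.16, R 4.3.3), with 9 residual degrees of freedom. P-values are two-sided and were adjusted by Benjamini-Hochberg across all tested genes, at a threshold of 0.05, and each SE was derived from the fold change and F. The script was tested on simulated data. DESeq2 1.42.0 and limma 3.58.1 (voom) were alternatives. Planned tests of Mt2 against hematogenous cells are given as values only. Intervals cover counting error only, at 95%.

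Members, lists and tests were chosen with earlier results of these data known. Text names the members, called zinc transporters, up to 6 called genes per other list averaging 10 CPM or more in their highest group, and the 5 genes most like Mt1 and Slc30a1. Slc40a1, Ndrg1, the cluster's neighbours and other called genes given in brackets were named after their values were seen.

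No libraries of the same group were duplicates of each other (chi-square per degree of freedom 4.91 or more). Pairs of libraries from different groups were not checked in this way.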

Additional observations from a re-analysis of the deposited data

How the results depend on the processing

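All members and lists were refitted under 20 alternatives. The alternative without TMM factors was chosen after seeing the data. Mt1, with no test, kept its direction in all 20, with log2 differences of -2.05 to -1.11 (lymphatic against culture), -5.49 to -4.83 (hematogenous against culture) and 3.01 to 4.11 (lymphatic against hematogenous). Mt2, without a test against hematogenous cells, ranged from -5.65 to -4.54 against culture and from 4.14 to 5.70 for lymphatic against hematogenous cells. Mt2 has few counts, and depth limits its share of metallothionein counts in hematogenous libraries. Slc39a10 and Mtf1 were called in none of the 20.

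Fitting only the 2 groups compared gave 6344 called genes for hematogenous against culture (3760 in the fit of all groups) and 1734 for lymphatic against hematogenous (3012). It also gave 7 called zinc transporters for hematogenous against culture and 1 for lymphatic against hematogenous, and Slc30a1 at -0.53 (called) and 0.62 (not called). Leaving out 1 library gave 3125 to 5930 called genes for hematogenous against culture, highest without lymphatic 4, and 2002 to 4333 for lymphatic against hematogenous, lowest without hematogenous 1. For Slc30a1 it gave -0.62 to -0.40 (hematogenous against culture), called without lymphatic 4 or hematogenous 1, and 0.47 to 0.71 (lymphatic against hematogenous), not called without culture 1, lymphatic 1 or 2, or hematogenous 2, 3 or 4. Called zinc transporters then numbered 1 to 4 for lymphatic against hematogenous, with 1 left without lymphatic 1, hematogenous 3 or hematogenous 4. Slc30a1 between lymphatic and hematogenous cells was at 0.60 without the low-count filter and 0.57 without TMM factors, not called in either, and 1 zinc transporter was called without TMM factors. More genes were tested without the filter. The other causes were not tested. Of 63 calls among the listed genes and cluster neighbours, Mt1 and Mt2 left out, 43 were kept in every alternative and 20 were lost in at least 1, among them Sgk1 in hematogenous cells (lost in 7) and Herpud1 in hematogenous cells (lost in 12). DESeq2 called 4 glucocorticoid response genes higher and 4 lower in lymphatic against hematogenous cells (3 and 2 by edgeR).

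With replicate number as a block, the Slc30a1 difference between lymphatic and hematogenous cells was 0.61 and no longer called (adjusted p = 0.0563), and the replicate block changed no other call of a member. It gave 2960, 3341 and 2309 called genes in the 3 comparisons, in the order used for Mt1. Deviations of libraries with the same number correlated at -0.18 to 0.0919, 0 of 12 over 0.1. With 4 libraries per group this cannot show whether libraries with the same number share an origin, which is not stated.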
